A study of Homo sapiens with 24 samples.

Results

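Krüppel-like factors (KLFs) are zinc finger transcription factors that bind GC-rich and CACCC promoter elements. The closely related SP factors use the same kind of site. Members differ in the cofactors they recruit: KLF3 represses through CtBP, KLF9, KLF10, KLF11, KLF13 and KLF16 bind the SIN3A corepressor, and KLF4, KLF5 and KLF6 act mostly as activators. Several KLF genes are immediate or early response genes, and in liver KLF9, KLF10, KLF11 and KLF15 are known from the hormonal and nutritional control of glucose and amino acid metabolism. An mRNA that is made in bursts and lost fast lets the level of such a factor follow transcription closely, which makes the half-lifetime of the mRNA part of the description of the gene.

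The KLF transcription factor mRNAs described here are 10 named genes (KLF3, KLF4, KLF5, KLF6, KLF9, KLF10, KLF11, KLF13, KLF15 and KLF16) of 58676 gene rows, listed by symbol. The list was made with earlier results of these data known. RNA was sequenced from HepG2, a long-established line of human hepatic tumour cells. The cells had been transiently transfected with siRNA targeting IGF2BP1, IGF2BP2 or IGF2BP3, a family of mRNA-binding proteins (conditions siIGF2BP1, siIGF2BP2 and siIGF2BP3), or with a control siRNA (siControl). Each of these 4 conditions was collected after 0, 3 or 6 h in actinomycin D at 5 µg/ml, a drug that stops transcription, so that loss of a transcript over time follows its decay. There were 12 groups of 2 libraries, 24 in all, with 31843248 to 74252042 gene reads each and an added set of synthetic ERCC RNAs. The study calls its replicates independent, and the labels do not say whether the 2 libraries of a group came from separate cultures, so p-values measure the spread between these libraries, part of which may be technical. The knockdowns are transient, and all 3 were compared with the same siControl libraries. At 0 h the targeted mRNA was left at 21.1% ± 0.464 of siControl for IGF2BP1, 26.2% ± 0.302 for IGF2BP2 and 35.5% ± 0.626 for IGF2BP3 (SD, n = 2). HepG2 identity was checked on liver and other markers. ALB averaged 11500 CPM (gene reads scaled to a common library size) at 0 h, AFP 12100 and HNF4A 357, whereas the endothelial marker PECAM1 averaged 0.698 CPM.

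Of the 10 KLF genes, 9 had at least 1 CPM in 2 libraries or more and were tested, among 13136 genes that passed this filter. KLF4, a factor known from pluripotency and epithelial differentiation, did not pass. Its 8 libraries at 0 h held 7 to 27 reads, and the later libraries held 0 to 6 reads. For KLF4 only reads and the level at 0 h are therefore given, apart from a fit without the filter. Of the 8 further KLF genes (KLF1, KLF2, KLF7, KLF8, KLF12, KLF14, KLF17 and KLF18) none passed. KLF7 had the highest mean of these at 0 h, 0.308 CPM, and KLF8, KLF17 and KLF18 had 0 reads in all 24 libraries.

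The genes lie on different chromosomes, apart from KLF4 and KLF9. In the annotation on GRCh38, KLF3 (ENSG00000109787) at chr4:38664197-38701517 on the plus strand and KLF4 (ENSG00000136826) at chr9:107484852-107490482 on the minus strand were annotated as protein-coding genes, as were all others. KLF5 (ENSG00000102554) lies at chr13:73054976-73077541 on the plus strand, and KLF6 (ENSG00000067082) at chr10:3775996-3785281 on the minus strand. KLF9 (ENSG00000119138) lies at chr9:70384604-70414657 on the minus strand, and KLF10 (ENSG00000155090) at chr8:102648784-102655725 on the minus strand. KLF11 (ENSG00000172059) lies at chr2:10042849-10054836 on the plus strand, and KLF13 (ENSG00000169926) at chr15:31326835-31435665 on the plus strand. KLF15 (ENSG00000163884) lies at chr3:126342635-126357408 on the minus strand, and KLF16 (ENSG00000129911) at chr19:1852399-1863579 on the minus strand.

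The half-lifetimes are given beside the sequences that hold a short AU-rich word, because UAUUUAU and its core AUUUA are textbook components of AU-rich elements in the 3′ untranslated regions (UTRs) of short-lived mRNAs. In the canonical 3′ UTR of each gene (GENCODE transcripts on GRCh38, the build the study aligned to, sense strand only), ATTTA occurred in all 10 KLF genes and in 67.5% of 19538 protein-coding genes. The longer TATTTAT, which contains ATTTA, occurred once in each of 5 KLF genes and in 31.5% of all genes. The nonamer TTATTTATT occurred in KLF5 and KLF16 and in 8.44% of all genes. Among the KLF genes only KLF4, at 899 bases, had a 3′ UTR below the median of 1064 bases over all genes, and KLF13 reached 5600. A longer UTR has more places for a word, and these shares are not matched for length. The 5 sites follow, written 5′ to 3′ on the strand of the mRNA with TATTTAT in capitals.

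KLF3, chr4:38701332-38701360, plus strand: cttgtatttgtTATTTATgaacccctgcc
KLF5, chr13:73077177-73077205, plus strand: ttgtttatcttTATTTATtttgtggtaat
KLF6, chr10:3778341-3778369, minus strand: tatgtttctctTATTTATgccttgaggac
KLF11, chr2:10052880-10052908, plus strand: ttttagaaaaaTATTTATattgttggtgc
KLF16, chr19:1853692-1853720, minus strand: gaatcctggctTATTTATtttcctctgtc

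The density of the core word differed more between members than its presence. KLF15 had 3.66 ATTTA per kb of 3′ UTR and KLF5 had 3.03. KLF13 had 0.89 and KLF16 had 0.97, the lowest densities of the 10, beside a median of 1.88 over 13554 genes with a 3′ UTR of 500 bases or more. KLF13 and KLF16 also had the most GC-rich 3′ UTRs of the family, 53.7% and 63.7% GC, with KLF15 at 52.9%, and the lowest of the others was KLF5 at 31.8%. KLF10, the member with the shortest half-lifetime below, had 3 ATTTA in 1348 bases and no TATTTAT. No match says only that these letters are not in that window.

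Before transcription was stopped, the tested KLF mRNAs differed widely in level. To compare genes, CPM scaled by the trimmed mean of M values (TMM) was divided by exon length, and the median and range over the 8 libraries at 0 h are given. KLF3 was highest at 12.1 CPM per kb (11.5 to 12.5). KLF6, an activator known as an injury-response gene in liver, followed at 9.77 (7.08 to 11.2) and KLF10, an early gene of TGF-β signalling, at 8.66 CPM per kb (7.7 to 9.69), and the ranges of these 2 overlapped. KLF16 was at 6.27 CPM per kb (5.83 to 6.7), KLF15 at 4.48 (3.74 to 5.4) and KLF9, a glucocorticoid-induced gene, at 2.21 (1.82 to 2.45), each apart from its neighbours in the order. KLF13 at 1.06 CPM per kb, KLF5 at 1.03 and KLF11 at 1.01 could not be ordered, since their ranges overlapped. KLF4 lay far below them at a median of 0.0552 CPM per kb.

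**Figure D1:**
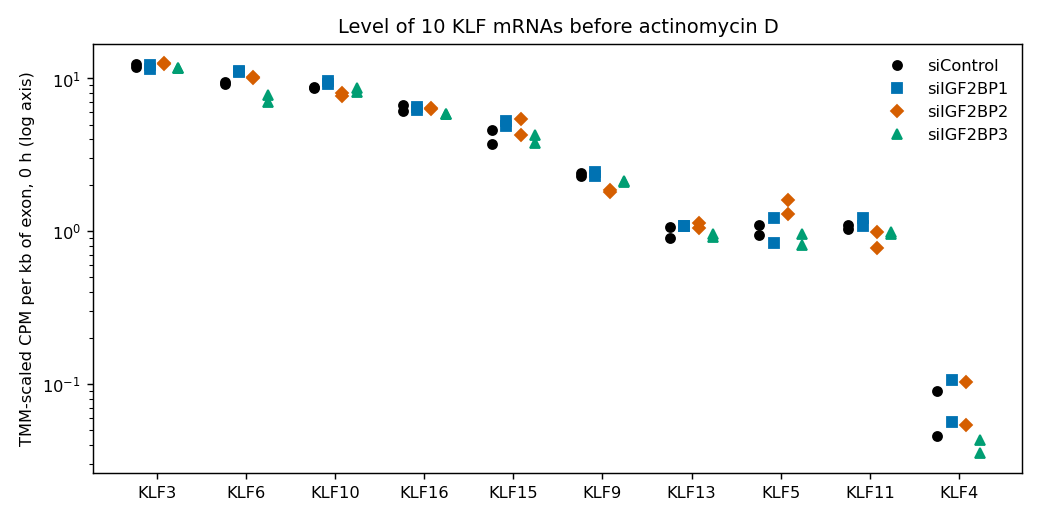
Level of each KLF mRNA at 0 h as TMM-scaled CPM per kb of exon (log axis), with 1 point per library, 2 libraries in each of 4 conditions. KLF3 is highest at a median of 12.1, KLF13, KLF5 and KLF11 overlap near 1, and KLF4 is lowest at 0.0552.

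All 9 tested KLF mRNAs fell in actinomycin D in every condition, and the fastest and slowest differed several-fold in what was left at 3 h. With libraries scaled by ERCC reads, KLF10 in siControl stood at 4.88% and 4.72% of its 0 h mean after 3 h and at 3.42% and 2.36% after 6 h. KLF13 in siControl stood at 49.4% and 43.8% after 3 h and at 18.1% and 13.6% after 6 h. Over all 8 libraries at 3 h, KLF10 ranged from 4.38% to 9.29% and KLF13 from 38.0% to 57.8%, so that their libraries did not overlap.

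Of the activators, KLF5 and KLF6 could be followed. KLF5, a factor of proliferating epithelium, was left at a median of 7.33% at 3 h (3.92 to 11.2%) and 5.34% at 6 h (1.17 to 9.88%, 8 libraries). Its libraries held only 8 to 50 reads at 3 h and 4 to 39 at 6 h, which limits the precision of these values. KLF6 was left at 16.6% at 3 h (15.5 to 18.9%) and 12.5% at 6 h (11.6 to 14.4%) on 272 to 674 reads at 6 h, where its 8 libraries had the narrowest relative range among the 9.

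The SIN3A-binding repressors covered both ends of the family. KLF9 was left at 10.8% at 3 h and 4.36% at 6 h, and KLF11, the relative of KLF10, at 20.1% and 13.7% (medians of 8 libraries). At 6 h the libraries held only 14 to 51 KLF9 reads and 20 to 72 KLF11 reads, which limits the precision of their late values. KLF16 was left at 37.1% at 3 h and 15.9% at 6 h. KLF13 was left at 44.4% and 17.8%. KLF3, the CtBP-dependent repressor, was left at 26.9% and 15.8%, and KLF15, known from gluconeogenic and amino acid gene control, at 22.4% and 10.7%. At 6 h each member overlapped the next in the order of medians, from KLF10 at 3.71% up to KLF13, so the order of neighbours is not resolved at that time point.

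**Figure D2:**
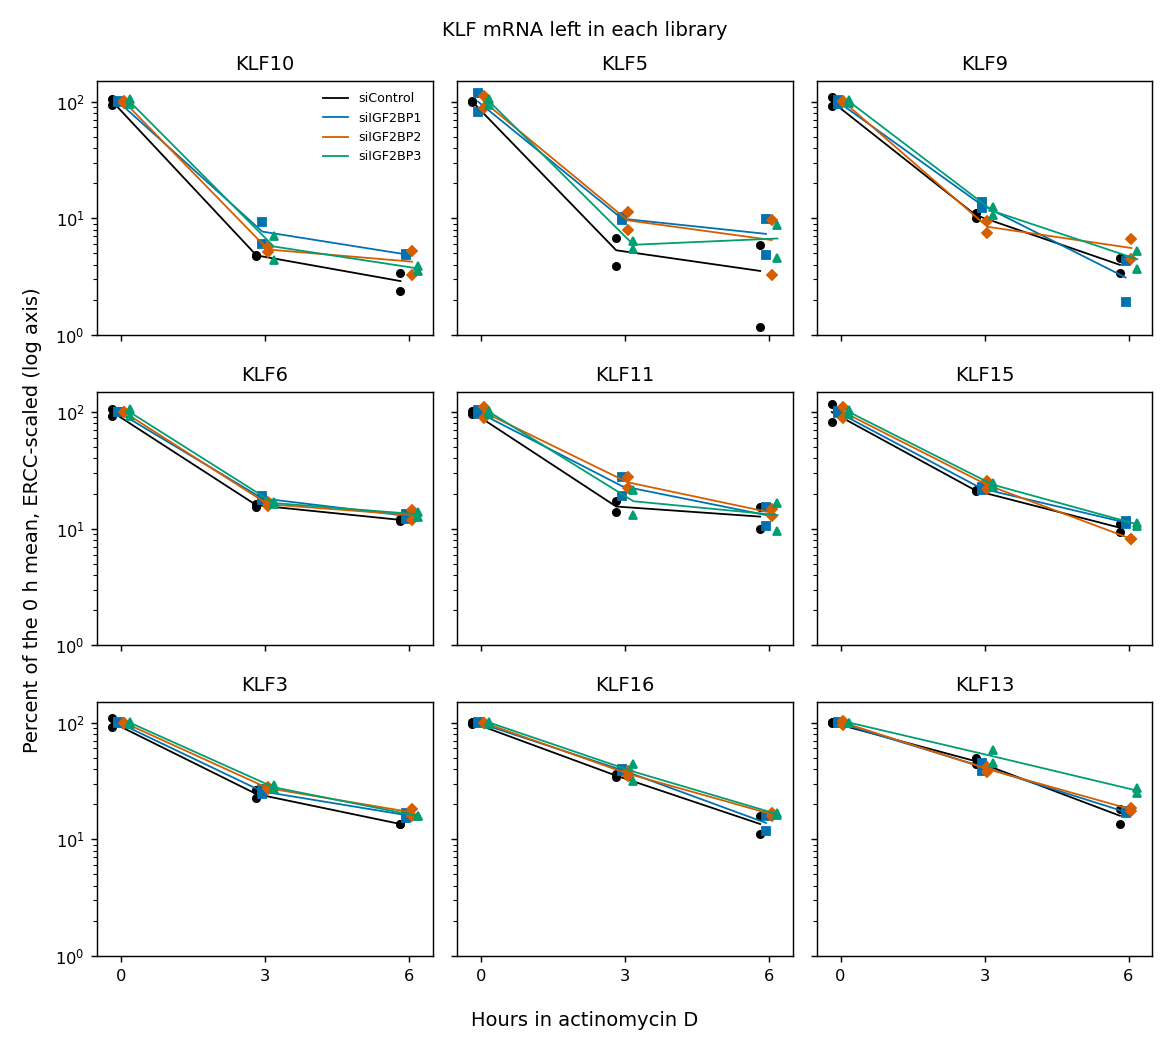
Percent of the 0 h mean left (log axis, ERCC-scaled) against hours in actinomycin D for the 9 tested KLF mRNAs, in order of half-lifetime. Points are single libraries and lines join the means of 2 libraries in each of 4 conditions. At 3 h KLF10 is at 9.29% or less in every library, and KLF13 is at 38.0% or more.

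In edgeR's quasi-likelihood test of a straight line through the 3 time points, 9 of 9 tested members had a falling slope at an adjusted p under 0.05 in siControl, where 80.3% of all genes fell. The count was 9 of 9 in siIGF2BP1, siIGF2BP2 and siIGF2BP3 too, where 69.1%, 71.3% and 67.2% of all genes fell. A count of falling genes is therefore near the background, and the sizes carry the description. In siControl the fitted log2 change over 6 h was -5.34 for KLF10 (SE 0.817, adjusted p 3.49e-06 in edgeR), -5.29 for KLF5 (SE 0.857) and -4.79 for KLF9 (SE 0.504). It was -3.33 for KLF15, -3.10 for KLF6, -3.07 for KLF11, -2.90 for KLF3, -2.89 for KLF16 and -2.64 for KLF13 (SE 0.159, adjusted p 1.8e-12). The median of all genes was -0.885 with ERCC scaling and -0.016 with TMM scaling, a shift between scales of that size, and all 9 members still fell with TMM.

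The half-lifetime was computed from the mean decay rate over 0 to 3 h and 0 to 6 h, with the range over all 8 ways of taking 1 library per time point. In siControl it was 0.865 h for KLF10 (0.83 to 0.9 h), 0.903 h for KLF5 (0.76 to 1.01 h) and 1.08 h for KLF9 (1.01 to 1.15 h). It was 1.43 h for KLF6, 1.44 h for KLF11, 1.54 h for KLF15 and 1.72 h for KLF3. The longest were 2.03 h for KLF16 (1.89 to 2.17 h) and 2.47 h for KLF13 (2.25 to 2.71 h). The ranges of KLF5, KLF10 and KLF9 lay below those of the 6 other members. KLF16 and KLF13 lay apart from each other, while KLF6, KLF11 and KLF15 overlapped. All genes with a measured half-lifetime had a median of 6.22 h in siControl, and only 0.40% of them were shorter than KLF10 while 16.86% were shorter than KLF13. These values are on the ERCC scale, and TMM scaling lengthened them, to a median of 1.92 h over the 36 member and condition values in place of 1.54 h, and the highest of the 36, KLF13 in siIGF2BP3, went from 3.11 to 4.94 h.

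**Figure D3:**
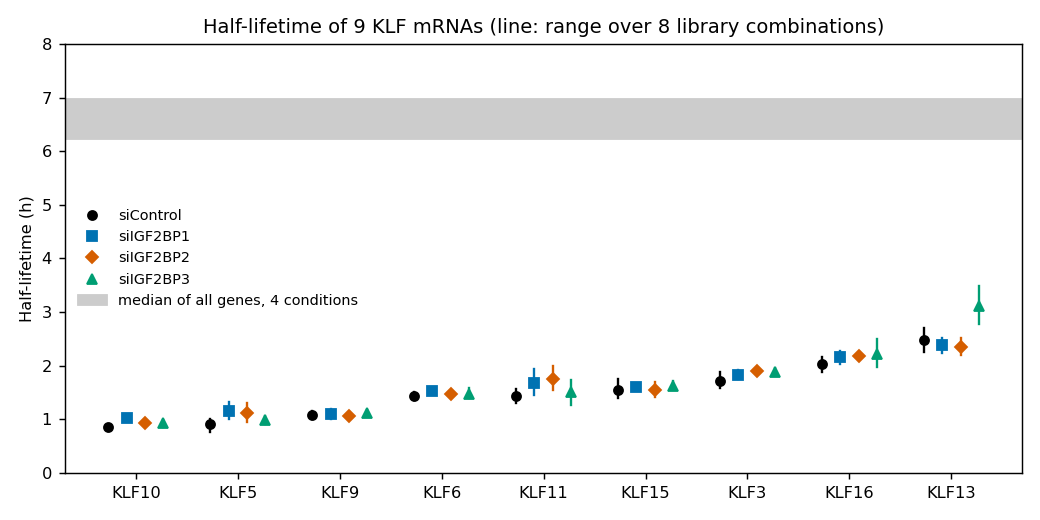
Half-lifetime in hours of the 9 tested KLF mRNAs in 4 conditions, with lines for the range over 8 combinations of 1 library per time point. The grey band is the median over all genes with a measured half-lifetime (6.22 to 6.98 h). Members run from 0.865 h for KLF10 in siControl to 3.11 h for KLF13 in siIGF2BP3, all under the band.

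Set against the 3′ UTR sequences above, the pair with the longest half-lifetimes, KLF13 and KLF16, was the pair with the lowest density of ATTTA, but KLF16 is also among the carriers of TTATTTATT. KLF15 had the highest density of ATTTA and a half-lifetime in the middle of the family. Across the 9 tested members, the Spearman correlation of half-lifetime in siControl was -0.53 with ATTTA per kb, 0.78 with the GC percentage of the 3′ UTR and 0.48 with its length. Across 7882 genes with a 3′ UTR of 500 bases or more the same correlations were -0.07, 0.08 and -0.12. These are descriptions across genes measured in the same libraries, and the ATTTA density and GC percentage of a UTR depend on each other.

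Ratios of raw reads within a library show the spread of decay among members without any scale between libraries. At 0 h there were 3.47 KLF10 reads per KLF13 read (2.86 to 3.85, median and range of 8 libraries). At 3 h the ratio was 0.409 (0.277 to 0.854), so that KLF13 reads outnumbered KLF10 reads in every library. At 6 h the ratio was 0.646 (0.465 to 1.02), no lower than at 3 h by its median. For KLF9 against KLF13 the ratio went from 1.2 (0.905 to 1.47) through 0.295 (0.182 to 0.437) to 0.243 (0.14 to 0.443). The ratio of KLF6 to KLF16 was 3.23 (2.51 to 3.68) at 0 h, 1.44 (0.963 to 1.77) at 3 h and 2.63 (2.09 to 3.74) at 6 h. Between 3 and 6 h KLF6 was thus lost more slowly than KLF16, the reverse of the first 3 h.

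The timing of loss differed between members in the same way when each interval was fitted separately. From 0 to 3 h the log2 change of KLF10 lay between -4.38 and -3.70 in the 4 conditions, and from 3 to 6 h between -0.73 and -0.33. KLF5 changed by -4.19 to -3.31 early and by -0.60 to 0.17 late. KLF6 changed by -2.65 to -2.45 early and by -0.50 to -0.30 late. KLF13, in contrast, changed by -1.32 to -0.94 early and by -1.55 to -0.995 late, and KLF16 by -1.51 to -1.35 early and by -1.50 to -1.15 late. The median of all genes was between -0.48 and -0.37 early and between -0.42 and -0.21 late.

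The difference of late minus early change was averaged over the 4 conditions. It was positive and past the threshold in 7 of 9 members. Of 13136 genes, 3348 were called positive and 575 negative, and both directions together made 29.9%. It was 3.56 for KLF10 (SE 0.146), 3.39 for KLF5 (SE 0.359), 2.20 for KLF6 (SE 0.097), 1.84 for KLF9 (SE 0.204), 1.71 for KLF11 (SE 0.245), 1.17 for KLF3 (SE 0.086) and 0.96 for KLF15 (SE 0.155, adjusted p 5.95e-09 in edgeR, the largest p of the 7). For each of these 7 the difference was positive in 4 of 4 conditions. It was -0.09 for KLF13 (SE 0.146, adjusted p 0.717) and 0.11 for KLF16 (SE 0.121, adjusted p 0.579). The median of all genes was 0.074. With TMM scaling the same count of 7 was reached, with a value for KLF15 of 0.82 (adjusted p 3.84e-06), while KLF16 changed sign to -0.04 (adjusted p 0.823) and calls over all genes went from 3348 positive and 575 negative to 2839 positive and 4098 negative. A half-lifetime fitted as first-order decay thus averages over unequal intervals for these 7 members: for KLF10 in siControl the first interval alone gave 0.685 h and the second 4.09 h, whereas for KLF16 they gave 1.98 h and 2.18 h.

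**Figure D4:**
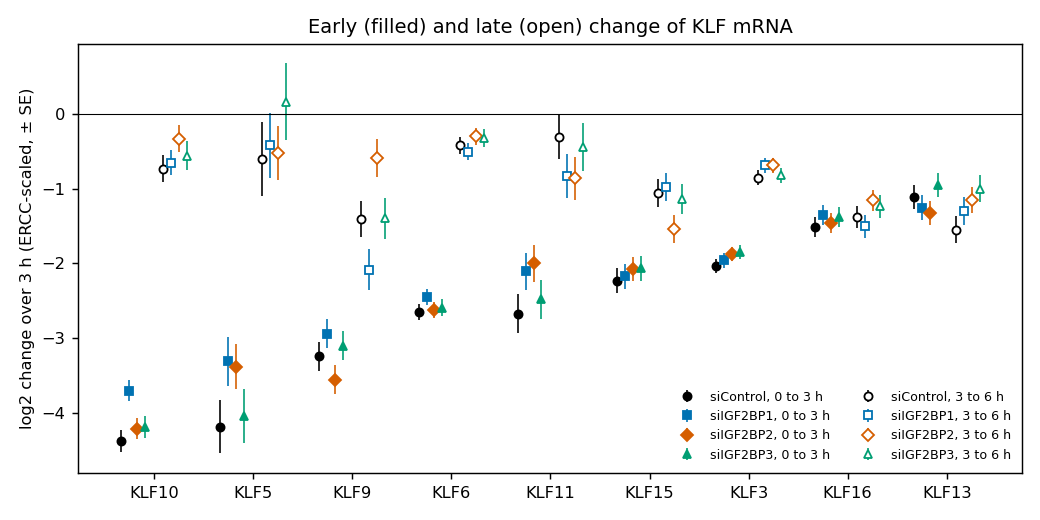
log2 change over 0 to 3 h (filled) and 3 to 6 h (open) for the 9 tested KLF mRNAs in 4 conditions, ERCC-scaled, with SE. Filled and open points are far apart for KLF10 and KLF5 and overlap for KLF16 and KLF13.

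The knockdowns were then compared with siControl at 0 h, which asks whether losing an IGF2BP protein altered the amount of a KLF mRNA. KLF6 was the single member past the threshold, and it differed in direction. In TMM-scaled CPM, KLF6 was at 57.8 and 56.7 in the siControl libraries, 67.8 and 68.5 in siIGF2BP1, 62.4 and 62.2 in siIGF2BP2 and 43.4 and 48.1 in siIGF2BP3. The 2 libraries of each condition did not overlap those of any other condition.

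In siIGF2BP1, 1 of 9 members was called, beside 15.9% of all genes: KLF6 was higher, with a log2 difference of 0.25 (SE 0.062, edgeR adjusted p 0.00341). In siIGF2BP3, 1 of 9 was called, beside 9.39% of all genes: KLF6 fell by 0.33 (SE 0.063, adjusted p 0.000402). In siIGF2BP2 edgeR called 0 of 9, beside 12.1% of all genes. There 1 member, KLF9, had an unadjusted p under 0.05 (-0.36, SE 0.143, adjusted p 0.0987), as did 3032 of the 13136 genes tested. DESeq2 also called 0 members in siIGF2BP2. A fit on only the 4 libraries compared called 3 members, KLF5 (0.47, adjusted p 0.0209), KLF9 (-0.38, adjusted p 0.00195) and KLF10 (-0.17, adjusted p 0.0342), among 2383 of 13136 genes. KLF6 was at 0.12 in siIGF2BP2 (SE 0.062, adjusted p 0.239) and KLF5 at 0.49 (SE 0.277, adjusted p 0.302). Both KLF6 calls were lost with ERCC scaling, at 0.22 (adjusted p 0.237) in siIGF2BP1 and -0.24 (adjusted p 0.17) in siIGF2BP3, and the call in siIGF2BP1 was lost without siControl replicate 2 at 0 h (0.24, adjusted p 0.0501). The siControl libraries had 762 and 666 gene reads per ERCC read at 0 h, the widest gap of any pair at 0 h, and the part of this gap in the lost calls was not tested. ERCC scaling also changed the calls over all genes, from 1239 higher and 854 lower to 253 and 396 in siIGF2BP1, and from 647 and 587 to 388 and 83 in siIGF2BP3.

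The knockdowns were also compared with each other, without siControl, which was decided after these values were seen. KLF6 was higher in siIGF2BP1 than in siIGF2BP3, with a log2 difference of 0.58 (SE 0.063, edgeR adjusted p 1.24e-08), as 1 of 9 members called beside 14.3% of all genes. It was higher in siIGF2BP2 than in siIGF2BP3 by 0.45 (SE 0.063, adjusted p 2.21e-06), as 1 of 9 beside 9.19%. Both calls remained with ERCC scaling, at 0.46 (adjusted p 0.000218) and 0.44 (adjusted p 0.000549), and without any 1 library. Between siIGF2BP1 and siIGF2BP2 edgeR called 0 of 9, beside 18.7% of all genes. There KLF6 was at 0.13 (SE 0.062, adjusted p 0.16), 3 members had an unadjusted p under 0.05, as did 3790 of 13136 genes, and DESeq2 called 2 members, KLF9 and KLF10, among 2636 of 11608 genes. The half-lifetime of KLF6 was 1.43 h in siControl and between 1.47 and 1.53 h in the knockdowns, and the ranges over library combinations overlapped between siControl and each knockdown.

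**Figure D5:**
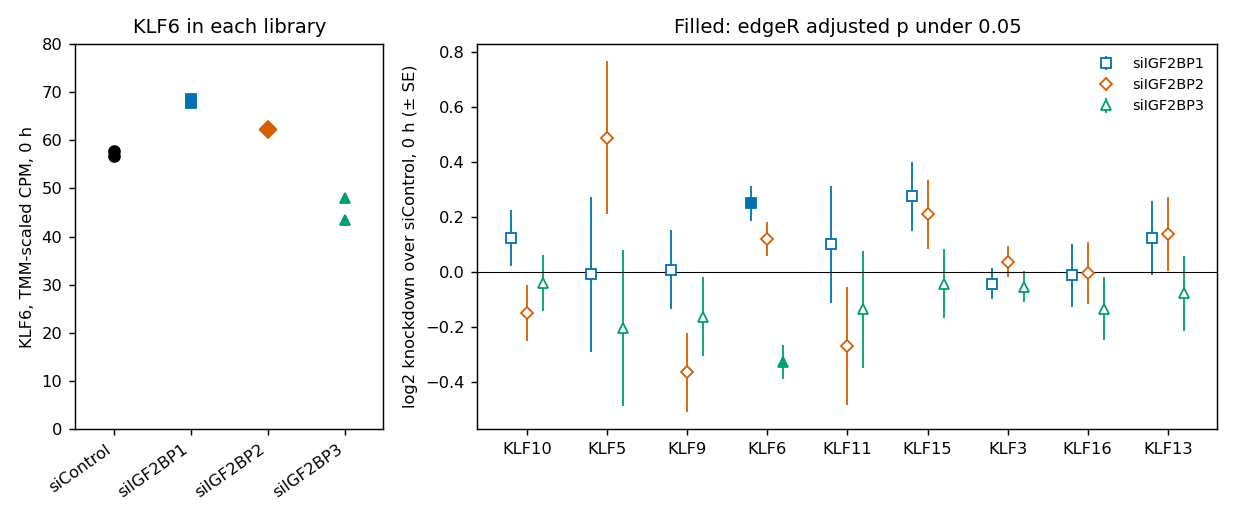
Left, KLF6 in each library at 0 h in TMM-scaled CPM. Right, log2 difference of each knockdown from siControl at 0 h with SE for the 9 tested KLF mRNAs, filled where the edgeR adjusted p is under 0.05. KLF6 is the only member filled, above 0 in siIGF2BP1 and below 0 in siIGF2BP3.

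Whether a knockdown altered the decay of a KLF mRNA was tested as the difference of its slope from siControl, positive where loss was slower in the knockdown. In edgeR 0 of 9 members passed in siIGF2BP1, beside 0.0152% of all genes, 0 of 9 in siIGF2BP2, beside 0.0%, and 0 of 9 in siIGF2BP3, beside 0.0228%. With an unadjusted p under 0.05 there were 0, 0 and 1 members, beside 1436, 896 and 2113 of the 13136 genes tested, so that 1 of 9 is no more than the background. DESeq2 called 0 members in each. All genes had a median slope difference of 0.187 in siIGF2BP1, 0.171 in siIGF2BP2 and 0.218 in siIGF2BP3 on the ERCC scale and within 0.024 of 0 with TMM, so members are read against those medians.

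KLF13 in siIGF2BP3 is described as the member with the unadjusted p under 0.05, which is not a call. Its siIGF2BP3 libraries were left at 57.8% and 45.0% at 3 h and at 24.7% and 27.5% at 6 h, against 49.4%, 43.8%, 18.1% and 13.6% in siControl, so that the groups overlapped at 3 h and not at 6 h. The slope difference over 6 h was 0.70 (SE 0.222, unadjusted p 0.00457, adjusted p 0.277 in edgeR), beside a median of 0.218 over all genes. With TMM scaling it was 0.49 (SE 0.238), also not a call. The half-lifetime was 3.11 h (2.77 to 3.49 h) against 2.47 h (2.25 to 2.71 h). Over genes with a measured half-lifetime the median was also longer, 6.98 h against 6.22 h, on sets of genes that differ. It was 0.10 in siIGF2BP1 (SE 0.223, adjusted p 0.848) and 0.16 in siIGF2BP2 (SE 0.220, adjusted p 0.752), with half-lifetimes of 2.38 h and 2.34 h. The gene span of KLF13 overlaps a processed pseudogene, UBE2CP4, by 535 bases on the same strand. Whether these bases lie in KLF13 exons was not examined, so any effect on KLF13 reads is not known.

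For the fast members the same test had little reach. KLF5 had slope differences of 1.20 (SE 1.268), 1.12 (SE 1.197) and 0.74 (SE 1.367) in siIGF2BP1, siIGF2BP2 and siIGF2BP3, and KLF10 had 0.80 (SE 1.100), 0.54 (SE 1.106) and 0.24 (SE 1.156), with adjusted p of 0.653 to 0.915 in edgeR. The half-lifetime of KLF10 was 1.02 h in siIGF2BP1 (0.959 to 1.08 h) against 0.865 h in siControl (0.83 to 0.9 h), and these ranges did not overlap. It was 0.924 h in siIGF2BP2 and 0.922 h in siIGF2BP3, overlapping siControl. In siIGF2BP1 the median over genes with a measured half-lifetime was longer too, 6.91 h against 6.22 h. These medians rest on 10349 and 11038 genes, so the sets differ. In the same knockdown KLF5 was at 1.15 h against 0.903 h and KLF11 at 1.68 h against 1.44 h, while KLF13 was shorter, at 2.38 h against 2.47 h. The combinations share libraries, so ranges that do not overlap are not a test. The half-lifetime of KLF9 was between 1.06 and 1.12 h and that of KLF15 between 1.54 and 1.63 h in the 4 conditions.

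By the root mean square distance of centred log2 ERCC-scaled means over the 12 groups, among 9745 genes with a mean of 5 CPM or more, the genes closest to KLF10 were TBCC (0.212), a tubulin folding cofactor, JUN (0.267), an immediate early AP-1 subunit, and ZNF574 (0.283). Those closest to KLF13 were IRF2 (0.111), an interferon regulatory factor, GDF7 (0.115), a secreted ligand of the BMP family, and UCK2 (0.116), a uridine-cytidine kinase.

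Other genes of the KLF system, from lists chosen for their role, had median changes in siControl nearer to 0 than the -3.10 of the 9 members, and this difference was not tested. In siControl 80.3% of all genes fell, with a median log2 change over 6 h of -0.885, so a count of falling genes in a short list says little. Of 9 SP genes, 5 were tested and all 5 fell in siControl, with a median log2 change over 6 h of -2.47. SP5, a Wnt-responsive factor, changed by -5.10 (SE 0.261) and SP2 by -1.34 (SE 0.131), with SP1, SP3 and SP4 between them. Of 10 corepressors and coactivators, 9 were tested and 7 fell, with a median of -0.62. SIN3A, the partner of KLF9, KLF10, KLF11, KLF13 and KLF16, changed by -4.32 (SE 0.151), and the acetyltransferase EP300 by -2.94. CTBP1, the partner of KLF3, changed by -0.62 (SE 0.085).

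Of 7 genes for ubiquitin ligases and a deubiquitinase known to act on KLF proteins, 6 were tested and all 6 fell, with a median of -1.63. FBXW7, a ligase for KLF5, changed by -2.57 and WWP1, another, by -0.87. Of 9 genes known to be regulated by KLF factors, 8 were tested and 7 fell, with a median of -1.82. SMAD7, which KLF10 represses, changed by -3.84 (SE 0.627), CDKN1A, a cell cycle inhibitor activated by KLF4 and KLF6, by -3.12 (SE 0.378), and PCK1, a gluconeogenic enzyme, by -2.35 (SE 0.330). Of 6 hepatocyte markers 1 fell, HNF4A by -0.90, and the median was 0.03. These counts also stand beside the 80.3% of all genes that fell in siControl.

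At 0 h CDKN1A was lower in siIGF2BP1 (log2 difference -0.29, SE 0.078, adjusted p 0.00622 in edgeR) and in siIGF2BP3 (-0.44, SE 0.078, adjusted p 0.000134). KLF6 was above siControl in siIGF2BP1 and below it in siIGF2BP3. Over all genes 15.9%, 12.1% and 9.39% were called in siIGF2BP1, siIGF2BP2 and siIGF2BP3, so a few calls in lists this short are not read as results about the lists. The list calls are on the TMM scale. With ERCC scaling the calls over all genes went to 649, 732 and 471. Of 8 regulated genes tested, 1 rose and 2 fell in siIGF2BP1, 0 rose and 1 fell in siIGF2BP2, and 0 rose and 2 fell in siIGF2BP3. The largest of these values was that of TXNIP in siIGF2BP2, -0.94 (SE 0.071, adjusted p 7.64e-13). In the same order, of 9 corepressors and coactivators tested 2, 1 and 2 rose and 0 fell. Of 5 SP genes tested 0, 0 and 1 rose and 1, 0 and 0 fell. Of 6 ubiquitin genes tested 1 rose in each knockdown, and 1 fell in siIGF2BP1 and siIGF2BP3, WWP1 by -0.30 and -0.29. The gene spans of KLF3, KLF11 and KLF16 overlap antisense RNAs on the opposite strand, by 730 bases for KLF3-AS1. Whether exons overlap was not examined, and the strand setting of the counting is not given in the sources used here. Reads of these 3 genes within the overlaps are therefore uncertain.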

How the data were processed

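RNA from HepG2 cells was sequenced in 24 libraries of 12 groups. Per the labels and methods, the authors added ERCC RNA in proportion to total RNA, trimmed single-end reads with Trimmomatic 0.39, aligned them to hg38 with HISAT2 2.1.0 and assigned them to GENCODE genes with HTSeq. Raw read counts were deposited. The HTSeq summary rows (13.551% to 17.064% of a library) and 45 rows for Y copies of pseudoautosomal genes were left out, and symbols were found for 58207 of 58676 identifiers. Library pairs of a group were further apart than counting error (chi-square over its degrees of freedom, 3.17 to 7.83). ERCC reads ranged from 50889 to 119088, and ERCC scaling cannot correct for RNA recovery.

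The edgeR quasi-likelihood test (edgeR 4.0.16, R 4.3.3) was run, two-sided, on 13136 genes with 1 CPM or more in 2 libraries or more, with Benjamini-Hochberg adjustment over all of them and a threshold of 0.05. Levels at 0 h used 12 group means with TMM scaling. Slopes used a line on time for each condition with ERCC scaling, whose spread includes departure from a straight line. Late minus early change used group means with ERCC scaling. That fit pooled the spread over all genes completely (infinite prior degrees of freedom), so its small p-values rest on one shared estimate. First-order decay rates from 0 to 3 h and from 0 to 6 h were computed on means of 2 libraries and averaged, and the half-lifetime was the natural log of 2 over that average. Positions, exon lengths and 3′ UTRs came from a later GENCODE release on the same build. Scripts were tested on simulated data.

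The members and lists were chosen with earlier results of these data known. All 10 members are named, with the 3 genes nearest to the members of shortest and longest half-lifetime. Alternatives were DESeq2 1.42.0, other scalings and filters, fewer libraries or time points, a replicate block and leaving out each library.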

Additional observations from a re-analysis of the deposited data

Results flagged for a closer look

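KLF6 at 0 h differed between knockdowns in a direct comparison, which was decided after these values were seen. KLF6 was higher in siIGF2BP1 than in siIGF2BP3 by 0.576 on the log2 scale (adjusted p 1.24e-08 in edgeR), and higher in siIGF2BP2 than in siIGF2BP3 by 0.447 (adjusted p 2.21e-06). It was 1 of 9 members called in each comparison, beside 14.3% and 9.19% of all genes. In each comparison the 2 libraries of one knockdown lay above both of the other. The loss of IGF2BP1 and of IGF2BP3 mRNA went with KLF6 on opposite sides of siControl, and what lies behind this was not tested. Both calls against siControl were lost with ERCC scaling (edgeR adjusted p 0.237 in siIGF2BP1 and 0.17 in siIGF2BP3).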

How the results depend on the processing

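With ERCC scaling the count of members called at 0 h went from 1 to 0 in siIGF2BP1 and in siIGF2BP3, and without each library in turn it was 0 to 1 in siIGF2BP1. With only the 4 libraries compared it went from 0 to 3 in siIGF2BP2 (KLF5, 0.47, adjusted p 0.0209, KLF9, -0.38, 0.00195, and KLF10, -0.17, 0.0342). Between siIGF2BP1 and siIGF2BP2 it went from 0 to 2 with DESeq2, 1 with no filter and 1 with a mean CPM of at least 5. That last filter tested 6 members and so left 4 of 7 calls of late unlike early loss and 6 falling members in each condition. With no filter KLF4 was tested, and 10 members fell. The median half-lifetime over 36 values was 1.92 h with TMM scaling, 1.75 h with library-size scaling and 2.02 h from 0 and 6 h alone, against 1.54 h. No alternative called a slope difference of a member.

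Slope differences that were not called changed sign for KLF13 with TMM scaling (-0.084 in siIGF2BP1, -0.010 in siIGF2BP2) and library-size scaling (-0.066 in siIGF2BP1), as did late minus early change of KLF16 with TMM (-0.035). Without each library in turn, the slope difference of KLF13 in siIGF2BP1 lay between -0.124 and 0.195 and in siIGF2BP2 between -0.059 and 0.26. Those of KLF5 ranged from -0.384 to 3.31 in siIGF2BP2 and from -0.858 to 2.92 in siIGF2BP3, and those of KLF10 from -0.515 to 1.35 and from -0.459 to 1.05. Late minus early change of KLF13 ranged from -0.168 to 0.011.

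Over all genes, calls at 0 h (siIGF2BP1, then siIGF2BP2, then siIGF2BP3) went from 2093, 1593 and 1234 to 649, 732 and 471 with ERCC scaling, and to 1265 to 1412, 846 to 978 and 586 to 765 without 1 library. In siIGF2BP2 they were split into 874 higher and 719 lower, and 563 and 169 with ERCC scaling. Between knockdowns (siIGF2BP1 and siIGF2BP2, siIGF2BP1 and siIGF2BP3, siIGF2BP2 and siIGF2BP3) calls went from 2455, 1879 and 1207 to 1585, 875 and 382 with ERCC scaling, and without 1 library to as few as 1570, 1103 and 676. Falling genes went from 10551, 9071, 9368 and 8832 to 5085, 5043, 5145 and 4931 with TMM, where 4773, 4736, 4560 and 4726 rose, and in siControl to 6871 with library-size scaling. Late unlike early loss was called for 3923 genes, 6937 with TMM, 6321 with library-size scaling and 1651 in siControl alone. Slope differences were called for 2, 0 and 3 genes. These became 86, 72 and 195 from 0 and 6 h alone, 4, 6 and 27 with DESeq2, 9, 22 and 12 with no filter, 5, 5 and 3 with library-size scaling, 1, 2 and 3 with TMM, 0, 0 and 0 with only the libraries compared, and up to 540 in siIGF2BP3 without 1 library (siControl replicate 2 at 0 h).

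Deviations of same-numbered libraries had a median correlation of 0.002 over 18 pairs at the same time (1 over 0.1) and 0.026 over 12 pairs in the same condition (3 over 0.1, the highest 0.238). Transfected plates were divided over the time points, so libraries of a condition may share a plate, but the labels do not tie plates to replicate numbers, and the numbers were not taken as pairs. Replicate number as a block changed no call of a member, with KLF6 at 0.25 (adjusted p 0.00318) in siIGF2BP1 and -0.33 (adjusted p 0.000354) in siIGF2BP3. Of 1039 alternative values for 64 member results, 1020 kept direction and side of the threshold. The 64 hold every falling slope and late minus early change, but only chosen 0 h levels and slope differences. Left out, for example, were KLF9 and KLF10 between siIGF2BP1 and siIGF2BP2, which DESeq2 called. The share is therefore not a rate for all member tests. Depth limits KLF4 throughout, KLF5 at 3 and 6 h, and KLF9 and KLF11 at 6 h.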
